A study of Homo sapiens with 8 samples.

Results

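Cytokine-treated spheroids were compared with cytokine-treated monolayers of A549 cells, a human lung adenocarcinoma line with epithelial features. The comparison was set by the array titles alone, which place 2 arrays in the treated 3D group and 2 in the treated 2D group, so that it uses 4 of the 8 arrays of the series. Both treated groups had been given 10 ng/ml TNF plus 2 ng/ml TGFβ, in 2 successive rounds that lasted 48 h each. The 3D cultures were aggregated in hanging drops and then kept as spheroids, whereas the 2D cultures were grown on plastic. The other 4 arrays hold 3D control and 2D control cultures that received vehicle, and they serve here as the same culture contrast without cytokines. All groups come from a single tumour line, and the label "3D" covers both the shape of the culture and the handling that made it.

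TNF acts mainly through NF-κB and TGFβ mainly through SMAD proteins, and the pair given together is a common way to drive epithelial cells into the epithelial-mesenchymal transition (EMT). In that transition cells lose E-cadherin and other junction proteins and gain motility and matrix proteases. Cells inside a spheroid also live in gradients of oxygen and nutrients that a monolayer lacks, and hypoxia-inducible factors, glycolysis and stress pathways are the usual readouts of such gradients. The question here is how the transcriptome of cells that saw the same cytokines differed between both culture formats.

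Expression was measured on Affymetrix U133 plus 2.0 arrays as GCRMA values on a log2 scale, where 1 unit is a doubling. The array medians lay between 2.43 and 2.50 and the lowest value was 2.23, so a level close to these numbers means that the probe set gave no usable signal. A group is called near background below when both of its values lay below the medians of their arrays, and a fold against such a group is given as a lower bound. Duplicate arrays correlated at r = 0.993 to 0.995 over 25550 brighter probe sets. The methods describe the pairs as technical duplicates and the series design as biological replicates, so the p-values measure the spread between these arrays, which may be technical. Levels are signals of different probes, and no gene's level is set against another gene's. Of the 15 A549 marker genes measured, 14 were above background in at least 1 treated group, and 9 of them were lower and 1 was higher in treated 3D. Among all genes above background in a treated group, 22.1% were lower and 13.5% higher, so lower members were more frequent in this list. Without cytokines, 5 of the 15 markers were lower and 1 was higher in 3D, against 4.9% and 5.77% of all genes. None of the 12 fibroblast or 10 endothelial markers differed between the treated groups at the threshold, but 6 fibroblast markers were called higher without the second treated 3D array, and 2 endothelial markers without either treated 3D array. Among 11 neural and muscle markers, TUBB3 (1.27) and ACTC1 (0.53) were called higher and MAP2 (−2.75) and SNAP25 (−2.26) lower. ACTC1 lost its call in most fits that left out 1 array, and MAP2 without the second treated 2D array. PTPRC (CD45, 2.23 to 2.30), CD3E (2.23) and CDH5 (2.23) stayed at the floor on all arrays. Differences within the leukocyte list reached 2.39 in treated and 3.38 in control cultures without passing, and CD14 was the only leukocyte marker of 11 that passed in treated cultures. CD14 was at 6.05 and 5.28 in treated 3D against 9.69 and 8.79 in treated 2D, and lost its call in 5 of the 8 fits that left out 1 array.

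Of 19775 genes, 4667 (23.6%) differed between treated 3D and treated 2D cultures at an adjusted p under 0.05 (limma, Benjamini-Hochberg over all probe sets). The spread in this fit was estimated from all 8 arrays, and with the 4 treated arrays alone 338 genes passed. Among them 1792 (9.06%) were higher and 2875 (14.5%) were lower in treated 3D. The median difference over all genes was 0.0. Of the 13013 genes above background in a treated group, 13.5% were higher and 22.1% lower, with a median difference of −0.06. The balance between both directions rested on single arrays. Higher genes made up 38.4% of the calls with all arrays, 49.4% without the first treated 3D array and 53.3% without the second. In vehicle-treated cultures 2110 genes (10.7%) differed between 3D and 2D, 1141 (5.77%) higher and 969 (4.9%) lower. Their group means come from other arrays, but both contrasts use the same estimate of each gene's spread. The calls of both contrasts are therefore not independent, and the overlaps below are descriptions. Of the genes higher in treated 3D, 698 were also higher in control 3D, which is 39.0% of the treated and 61.2% of the control calls. Of those lower in treated 3D, 716 were also lower in control 3D (24.9% and 73.9%). Both contrasts went past the threshold in opposite directions for 64 genes, 22 of them higher and 42 lower in treated 3D. The difference between both contrasts was itself past the threshold for 645 genes (3.26%), with 261 more positive (1.32%) and 384 more negative (1.94%) in treated cultures.

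**Figure D1:**
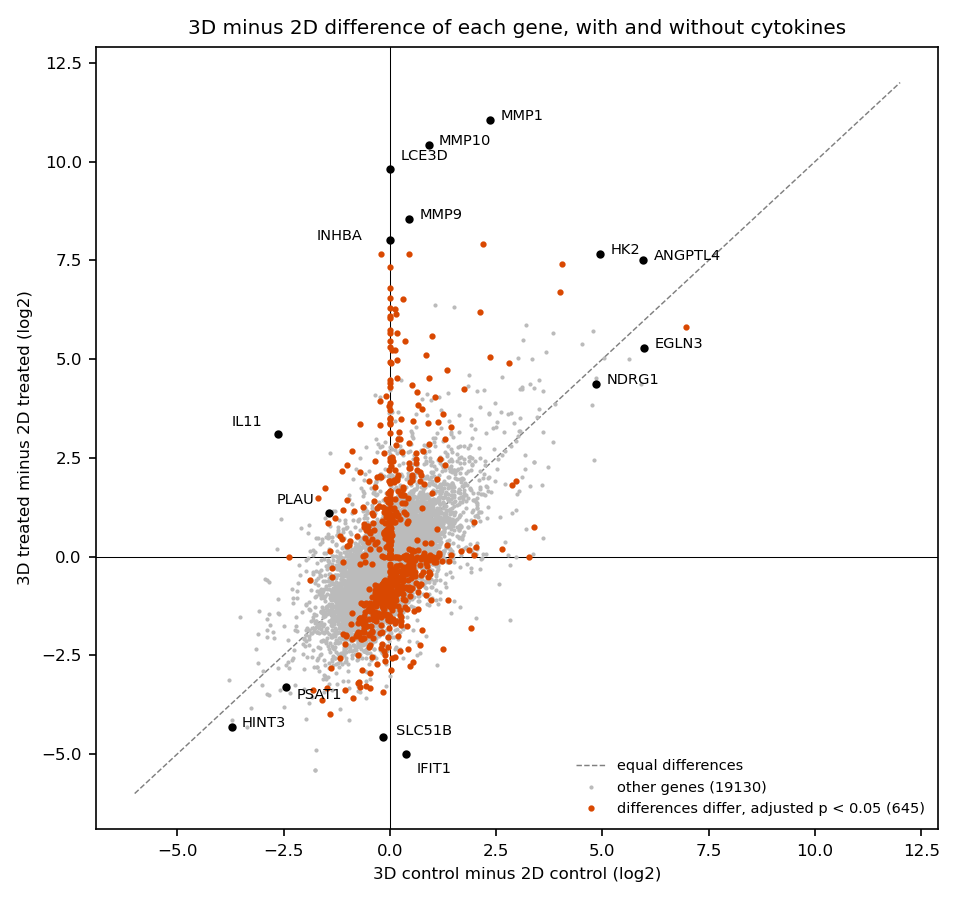
Each point is 1 of 19775 genes, with the control 3D minus control 2D difference on the x axis and the treated 3D minus treated 2D difference on the y axis (both log2). Orange points are the 645 genes whose 2 differences differed at an adjusted p under 0.05. MMP1, MMP10, LCE3D, MMP9 and INHBA stand near the top, with treated differences of 8.01 to 11.06 and control differences of 0.0 to 2.36. EGLN3 and NDRG1 lie just below the dashed line of equal differences and ANGPTL4 1.54 above it.

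Secreted matrix proteases were among the genes with the largest differences. MMP1 (interstitial collagenase) was at 14.09 and 13.36 on the treated 3D arrays and at 2.75 and 2.58 on the treated 2D arrays. Its difference was 11.06 ± 0.26 (log2, SE, n = 2 per group, limma adjusted p = 0.000616), or 2130.1-fold on values whose lower end is close to background. MMP10 (stromelysin-2) was at 14.39 and 14.14 in treated 3D against 5.0 and 2.71 in treated 2D. The 2 treated 2D arrays thus disagreed on MMP10, and its difference of 10.41 (adjusted p = 0.00591) was 11.55 without the first of them and 9.27 without the second. MMP9 (gelatinase B) was at 11.45 and 10.48 against 2.41 and 2.45, a difference of 8.54 ± 0.35 (adjusted p = 0.00167). MMP3 (stromelysin-1) was at 9.09 and 7.95 in treated 3D and at 2.23 on each of the other 6 arrays, and was therefore at least 67.9-fold higher. For these 4 proteases every treated 3D value lay far above every treated 2D value. Without cytokines MMP1 was at 4.89 and 4.91 in 3D (2.36 above control 2D, adjusted p = 0.021), and MMP9 at 2.75 and 2.95. The difference of contrasts passed for MMP1 (8.70), MMP9 (8.09) and MMP3 (6.28) and narrowly missed for MMP10 (9.50, adjusted p = 0.052).

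The list of proteases and their inhibitors held 27 measured members, with a median difference of 0.42. In treated 3D 10 (37.0%) were higher and 3 (11.1%) lower, against 1 and 2 in the control contrast. The shares over all genes in treated 3D are 9.06% higher and 14.5% lower. Of the 5 inhibitors measured, TIMP3, SERPINE2 and TIMP1 were higher, whereas TIMP2 (−0.08) and TIMP4 (0.56) did not pass. TIMP3, a matrix-bound metalloproteinase inhibitor, was at 8.57 and 7.64 in treated 3D and at 2.38 elsewhere, at least 51.0-fold higher. SERPINE2 (protease nexin-1) was 4.15-fold higher and TIMP1 1.81-fold higher. The urokinase receptor PLAUR was at 12.75 and 12.85 against 10.35 and 9.93 (2.66 ± 0.17, adjusted p = 0.0036), and the sheddase ADAM19 was 17.2-fold higher. Urokinase itself (PLAU) turned direction with the cytokines. It was lower in control 3D than in control 2D (−1.44, adjusted p = 0.0212) and higher in treated 3D than in treated 2D (1.11, adjusted p = 0.017), and the contrasts differed by 2.55 (adjusted p = 0.0233). The treated call of PLAU did not hold without either treated 2D array or either control 3D array (adjusted p up to 0.0794). The 3 lower members were MMP24 (−1.47), ADAM9 (−1.02) and MMP15 (−0.91). ADAM9 lost its call in 5 and MMP15 in 7 of the 8 leave-one-out fits, and the 3 became 1 without either control 2D array, the first treated 2D array or the second treated 3D array. MMP7, which is secreted by airway epithelium, was at 10.29 and 10.25 against 10.60 and 9.86 (0.04, 95% interval −0.94 to 1.03), and MMP2 missed the threshold at 1.60 (adjusted p = 0.0858).

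MMP10 is the one of these 4 highest proteases for which the RefSeq table of promoter windows used here holds a sequence. It is shown because AP-1, the JUN and FOS dimer, is a textbook regulator of metalloproteinase promoters and JUN was among the genes that differed. The 250 bases before its start (GRCh38.p14, chr11:102780629-102780878, minus strand) hold 1 match to the AP-1 motif TGANTCA, 67 bases before the start and printed in capitals:
MMP10: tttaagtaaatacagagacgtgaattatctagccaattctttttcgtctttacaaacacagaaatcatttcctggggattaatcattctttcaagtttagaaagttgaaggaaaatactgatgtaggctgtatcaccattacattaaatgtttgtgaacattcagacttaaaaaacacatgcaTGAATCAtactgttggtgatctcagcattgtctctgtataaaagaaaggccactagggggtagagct
Both strands were searched, and 8.06% of all 27305 genes with a window hold the motif. Of the 18 proteases and inhibitors with a window, 3 (16.7%) held it. A match describes the letters only.

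A group of genes gave signal in treated 3D and was near background elsewhere. Of the genes higher in treated 3D, 89 were near background in treated 2D, and 71 of these were near background in both control groups too, 29 of them at least 4-fold above that level. LCE3D, a gene of the cornified envelope of skin, was at 12.86 and 11.40 in treated 3D and at 2.30 to 2.32 on the other 6 arrays, at least 828.1-fold higher. INHBA, the activin A subunit and a ligand of the TGFβ family, was at 10.86 and 9.63 against 2.23 on all other arrays. FST (follistatin), which binds and blocks activin, was at 9.09 and 8.50 and did not exceed 2.25 elsewhere. The activin ligand and its antagonist thus appeared on the same arrays. INHBB, the other activin subunit, was lower in treated 3D (6.87 and 6.25 against 10.60 and 10.48, −3.98 ± 0.22, adjusted p = 0.00282), and less so in control 3D (−1.40, adjusted p = 0.0411). PDGFB, a mitogen for mesenchymal cells, was at 9.24 and 8.81 and at 2.23 or 2.24 elsewhere, at least 96.6-fold higher (adjusted p = 0.000495). Arrays at the floor add almost no spread to the shared estimate, which makes such p-values small. In the limma fit of the 4 treated arrays alone the adjusted p was 0.0433 for PDGFB, 0.0525 for FST, 0.0709 for LCE3D and 0.072 for INHBA. IL33 (an alarmin), HAS2 (hyaluronan synthase) and RUNX2 (an osteogenic transcription factor) had the same pattern, at 8.84 and 7.76, 6.92 and 6.18, and 6.03 and 5.21. HAS2 and RUNX2 were named after their values were seen. Not all probe sets of these genes were called higher, with 1 of 2 for HAS2, 1 of 6 for RUNX2, 2 of 3 for INHBA and 2 of 4 for PDGFB. None of them was called lower. The difference of LCE3D (9.82) was 9.09 without the first treated 3D array and 10.55 without the second, and that of INHBA (8.01) was 7.40 and 8.62.

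Other genes at the top of the comparison were low in treated 2D without being at the floor. TREM1, a receptor that amplifies inflammation on myeloid cells, was at 12.23 and 11.70 against 4.57 and 3.52. GAL, which encodes the neuropeptide galanin, was at 11.03 and 10.18 against 2.82 and 3.07. MAF, a bZIP transcription factor, was at 10.65 and 10.22 against 2.83 and 2.70. PPP1R14C, an inhibitor of protein phosphatase 1, was at 10.73 and 10.23 against 2.89 and 3.43. These 4 genes had differences of 7.32 to 7.92 and adjusted p of 0.00125 to 0.00268. Among them the control contrast was past the threshold for none, and TREM1 came nearest (2.19, adjusted p = 0.0635). CXCR4, the receptor of CXCL12, and SPINK1, a trypsin inhibitor, already stood apart in control cultures. CXCR4 was at 6.24 and 6.70 in control 3D against 2.39 and 2.48 in control 2D, and was at 10.05 and 9.80 in treated 3D against 2.57 and 2.45.

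**Figure D2:**
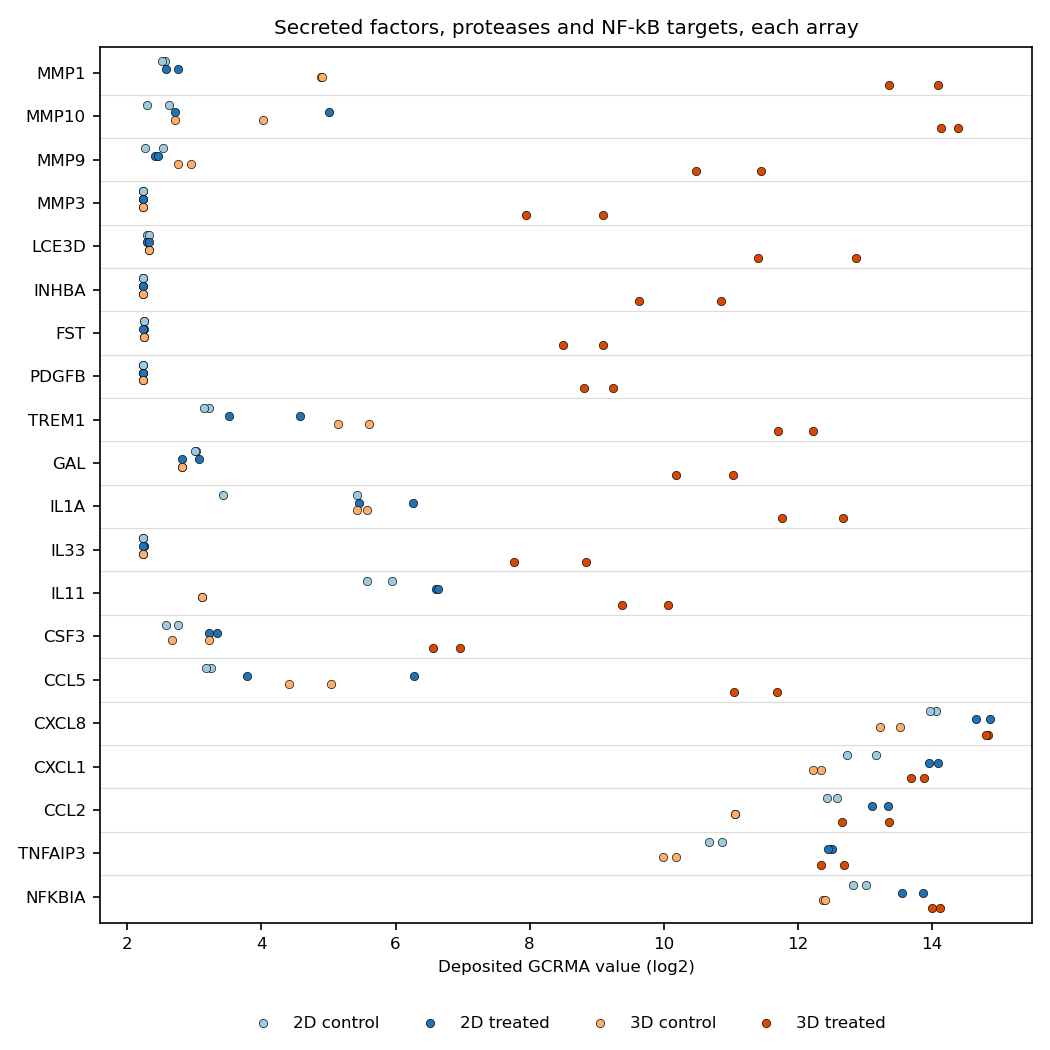
Deposited log2 values of 20 genes on each of the 8 arrays, with 2 points per group. The upper 15 genes reach high values on the treated 3D arrays, and the NF-κB targets at the bottom (CXCL8, CXCL1, CCL2, TNFAIP3, NFKBIA) have overlapping or adjacent values in treated 2D and treated 3D.

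Some cytokine genes had close values in both treated formats and others were high in treated 3D. CXCL8 (interleukin-8), a neutrophil chemokine and NF-κB target, was at 14.83 and 14.80 in treated 3D and at 14.86 and 14.65 in treated 2D. Its difference of 0.06 had a 95% interval of −0.29 to 0.41. TNFAIP3 (A20), a feedback inhibitor of NF-κB, was at 12.69 and 12.35 against 12.51 and 12.45 (interval −0.36 to 0.43). CXCL1 had a difference of −0.24 (−0.71 to 0.22) and CCL2 of −0.22 (−0.91 to 0.48). In each of these 4 genes both treated 2D values lay above both control 2D values. Other members rose, among them IL1A and IL33 of the interleukin-1 family. IL1A was at 12.67 and 11.77 against 6.26 and 5.46 (82.2-fold, adjusted p = 0.0125). IL11, an interleukin-6 family cytokine and TGFβ target, was at 10.07 and 9.37 against 6.61 and 6.63, a difference of 3.10 ± 0.27. In control cultures IL11 differed the other way (3.11 on both 3D arrays against 5.57 and 5.95, adjusted p = 0.0188), and the contrasts differed by 5.75 (adjusted p = 0.0132). CSF3 (G-CSF) was 11.2-fold higher, and IL7R was at 6.53 and 5.72 against 2.23 elsewhere.

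Of the 33 cytokines and adhesion molecules measured, 8 (24.2%) were higher and 2 (6.06%) lower, with a median of 0.16. The 8 became 5 without either control 2D array or without the second treated 2D array. Of the 23 chemokines, 2 were higher (CCL5 and CCL20) and 3 lower (CXCL16, CX3CL1 and CXCL5). The chemokine counts are close to the shares over all genes (9.06% higher and 14.5% lower). CCL5 (RANTES) was at 11.69 and 11.04 in treated 3D, whereas the treated 2D arrays read 6.27 and 3.79. Its call (6.33, adjusted p = 0.0168) did not hold without either treated 3D array or either control 3D array (adjusted p up to 0.0613), and its difference ranged from 5.09 to 7.57 as single treated 2D arrays were left out. IL1A lost its call without the second treated 2D array (adjusted p = 0.0647). CCL20, CXCL16 and CXCL5 each lost theirs in 6 of the 8 leave-one-out fits and CX3CL1 in all 8. No chemokine was called higher without either control 3D array, and none was called lower without either 2D control or either treated 2D array. IL6 (1.16, interval −0.50 to 2.82), IL1B (2.08, adjusted p = 0.0637) and ICAM1 (0.33) did not pass, and TNF itself was at 2.23 on all arrays.

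The machinery that carries both signals differed between formats. Of 20 NF-κB subunits and feedback regulators, 10 were higher and 2 lower in treated 3D (median 0.79), against 2 and 1 in the control contrast. The count of 10 became 6 when any 1 of the treated 2D or control 3D arrays was left out. RELA (p65), the main activating subunit, was at 10.52 and 10.91 against 8.48 and 8.41, a difference of 2.26 ± 0.18 (adjusted p = 0.0052). RELA was also higher in control 3D (1.26, adjusted p = 0.0343), and the contrasts did not differ past the threshold (1.0, adjusted p = 0.164). TRAF1, an adaptor of TNF receptors, was at 6.97 and 5.94 against 3.63 and 3.21, and lost its call without either treated 2D array (adjusted p up to 0.0691). NFKBIZ, an atypical IκB, was 2.38-fold higher and TNIP2 3.53-fold higher. TNFAIP2 was lower (−1.40 ± 0.12), and NFKB1, NFKB2 and NFKBIA did not pass (0.54, 0.14 and 0.35). TNFRSF1A, the main TNF receptor, was lower (10.20 and 9.85 against 11.05 and 11.16), with its call lost without either treated 2D array, and TNFRSF1B, the second TNF receptor, was higher (5.05 and 5.04 against 3.12 on both arrays, adjusted p = 0.00148).

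The TGFβ receptors split as well. TGFBR1, the signalling receptor, was at 12.68 and 12.43 in treated 3D against 10.25 and 10.46 (2.20 ± 0.12, adjusted p = 0.00273). TGFBR2, which binds the ligand first, was at 9.83 and 9.39 against 11.85 and 11.77 (−2.19 ± 0.17), and the co-receptor TGFBR3 was at 6.35 and 5.91 against 8.89 and 8.65 (−2.64 ± 0.22). None of the 3 receptors passed the threshold in control cultures, where TGFBR1 lay between 10.23 and 10.38 on all 4 arrays. The TGFBR1 contrasts differed from each other (2.21, adjusted p = 0.018), and those of TGFBR2 (adjusted p = 0.053) and TGFBR3 (adjusted p = 0.0987) did not pass. Of the 29 genes listed as TGFβ targets and feedback, receptors included, 10 (34.5%) were higher and 5 (17.2%) lower (median 0.29). The shares over all genes are 9.06% higher and 14.5% lower. The inhibitory SMAD7 rose (8.24 and 8.13 against 6.39 and 6.65), with its call lost without the first treated 2D array (adjusted p = 0.0544), and JUNB rose 4.33-fold. The ligand TGFB2 was 4.04-fold lower. PMEPA1 had a difference of −0.45 (interval −1.01 to 0.12), SKIL of 0.55, TGFBI of 0.67 and ID1 of −0.35, and these 4 members of the list did not pass the threshold.

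Several transcription factors of the EMT programme were higher in treated 3D. Of 12 measured, 6 were higher and 1 lower, with a median of 0.49. SNAI2 (SLUG) was at 9.15 and 8.18 against 2.45 and 2.52 (6.18 ± 0.36, adjusted p = 0.00293), and had reached 4.39 and 4.82 in control 3D. ZEB2 was at 6.73 and 6.19 against 2.71 and 2.60, with 2.35 to 2.41 in all control arrays, a difference of 3.80 ± 0.19. For both genes the treated contrast exceeded the control contrast (SNAI2 by 4.07, adjusted p = 0.0453; ZEB2 by 3.83, adjusted p = 0.014). ZEB1 was 1.86-fold higher (adjusted p = 0.0061) and FOXC2 4.50-fold higher. TWIST1 was at 9.62 and 9.98 against 8.83 and 8.35, and its call (1.22, adjusted p = 0.0358) did not hold in any of the 8 leave-one-out fits. FOXC2 lost its call in 3 of them, namely without either treated 2D array and without the second treated 3D array. PRRX1 was also called higher, at 2.32 and 2.34 against 2.25, which is near background in both groups and shows no usable signal. SNAI1 was at 2.74 and 3.28 against 2.51 and 2.52 (adjusted p = 0.194).

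Of 26 epithelial markers, 6 (23.1%) were lower and 3 (11.5%) higher in treated 3D (median 0.0). These shares are over all 26, of which 20 were above background in a treated group. Of all genes 14.5% were lower and 9.06% higher, and of genes above background 22.1% and 13.5%. CDH1 (E-cadherin) was at 11.71 and 11.99 against 12.98 and 13, a fall of 2.20-fold (−1.14 ± 0.11, adjusted p = 0.00683). In treated 2D CDH1 had the level of the control 2D arrays (12.94 and 12.95). EHF, an epithelial ETS factor, was 7.0-fold lower, the sodium channel subunit SCNN1A 2.92-fold lower and the receptor ERBB3 3.03-fold lower. ERBB2 was 4.75-fold lower and FGFR3 10.0-fold lower (4.19 and 3.56 against 7.25 and 7.15). Keratins moved both ways. KRT18 was lower (−0.67 ± 0.04), whereas KRT19 (8.94 and 9.12 against 6.95 and 6.79) and KRT15 (8.31 and 8.62 against 6.05 and 5.96) were higher. The 3 epithelial markers called higher were ELF3 (0.93), PROM2 (0.91) and CDH3, which was near background in both groups. PROM2 lost its call in all 8 leave-one-out fits and ELF3 in 7, and the probe sets of ELF3 disagreed in direction. EPCAM did not pass (−1.34, adjusted p = 0.107). Of 22 mesenchymal markers, 4 (18.2%) were higher (VIM, NT5E, LGALS1 and PDGFB) and 2 (9.09%) lower (NRP1 and CD44). The higher members were 2 without the second treated 2D array and 8 without the second treated 3D array, and NT5E lost its call in 6 of the 8 fits. VIM (vimentin) was at 15.06 and 15.12 against 13.93 and 13.79, and control 3D stood at 14.71 and 14.83. CDH2 (N-cadherin, 1.53, adjusted p = 0.0996) and FN1 (fibronectin, 0.26) did not pass.

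**Figure D3:**
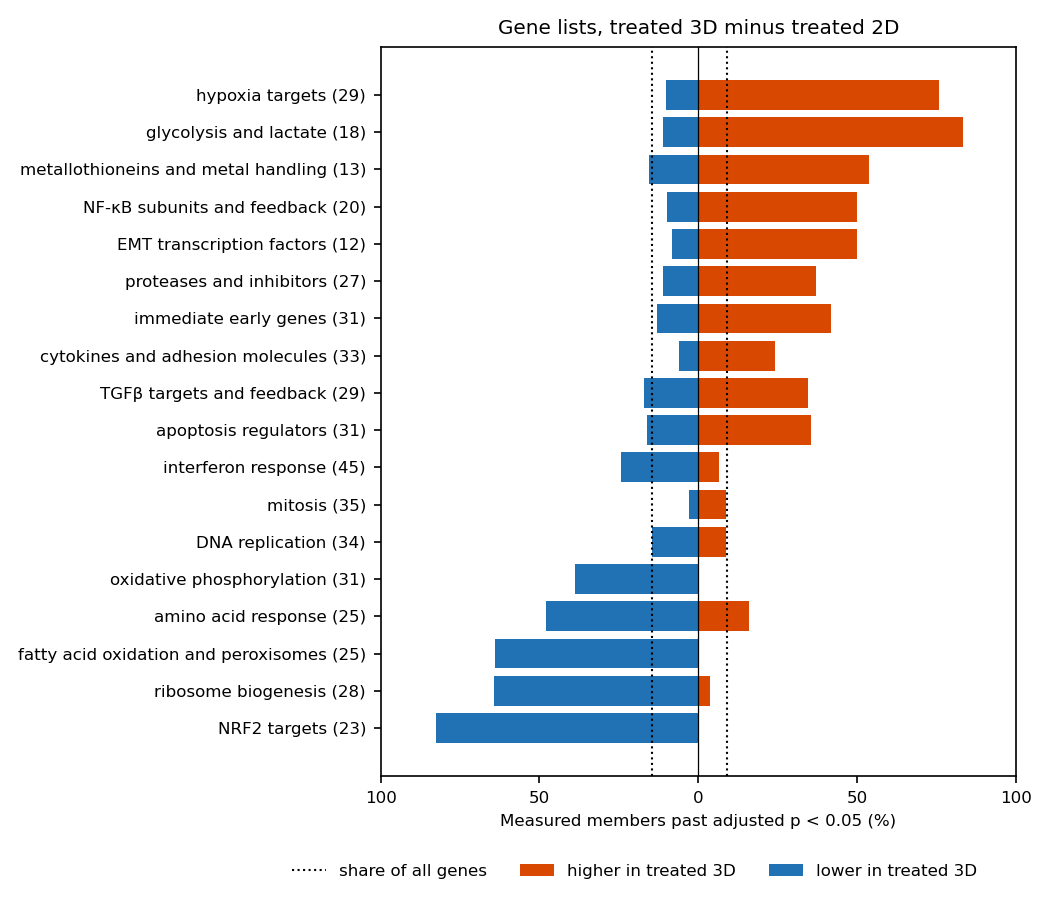
Share of the measured members of 18 gene lists (number in brackets) that were higher (right) or lower (left) in treated 3D than in treated 2D at an adjusted p under 0.05. The dotted lines mark the shares over all 19775 genes, 9.06% higher and 14.5% lower. Hypoxia targets and glycolysis extend furthest to the right and NRF2 targets furthest to the left.

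Most hypoxia targets rose. Of 29 measured, 22 (75.9%) were higher and 3 (10.3%) lower in treated 3D, with a median of 1.96, against 9.06% and 14.5% of all genes. In control cultures 23 were higher and none lower, with a median of 1.81. The 3 lower members became 1 without the second treated 2D array, either control 3D array or the second treated 3D array. ANGPTL4, a lipase inhibitor, was at 11.88 and 11.75 against 4.72 and 3.92 (7.50 ± 0.30, adjusted p = 0.00158). HK2 (hexokinase 2), which traps glucose in the cell, was at 9.76 and 10.06 in treated 3D and at 2.25 on both treated 2D arrays, at least 178.3-fold higher. NDRG1 was at 14.34 and 14.31 against 10.30 and 9.59, and ADM (adrenomedullin) at 15.25 and 15.34 against 11.99 and 11.54. ANKRD37 was 41.9-fold higher (10.31 and 10.46 against 5.42 and 4.57). EGLN3, an oxygen-sensing prolyl hydroxylase, was at 10.42 and 10.51, but the treated 2D arrays read 6.03 and 4.32. Its difference of 5.29 was 4.43 without the second treated 2D array and 6.14 without the first, and its call was lost without the second treated 3D array (adjusted p = 0.0528).

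Several hypoxia targets had close culture differences with and without cytokines. ERO1A differed by 3.18 ± 0.08 in treated and by 3.05 in control cultures, ADM by 3.53 and 3.47, and KDM3A by 2.17 and 2.13. The glucose transporter SLC2A1 and HK2 were the 2 members whose treated difference exceeded the control difference past the threshold. SLC2A1 was at 11.44 and 11.82 against 7.21 and 7.59 in treated cultures (4.23) and differed by 1.74 in control cultures (difference of 2.49, adjusted p = 0.0407). For HK2 the control difference was 4.95 and the contrasts differed by 2.72 (adjusted p = 0.0403), with the treated 2D arrays below the control 2D arrays (3.54 and 4.12). EGLN1 went the other way. It was at 10.81 and 10.80 in treated 3D against 11.74 and 11.93, while control arrays of both formats lay between 12.04 and 12.14 (difference of −1.05, adjusted p = 0.0323). PFKFB4 (1.17, adjusted p = 0.135) and BNIP3 (0.59, adjusted p = 0.103) were past the threshold in control but not in treated cultures, and their contrasts did not differ past the threshold (adjusted p = 0.212 and 0.332).

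Hypoxia-inducible factors bind a core of ACGTG, so the promoters of 3 members that differed in both contrasts are shown, with ACGTG or its reverse complement CACGT in capitals. Each is the 250 bases before a RefSeq start (GRCh38.p14). ANKRD37 lies at chr4:185396591-185396840 (plus strand), HK2 at chr2:74833877-74834126 (plus strand, the first of 2 windows) and P4HA1 at chr10:73096867-73097116 (minus strand):
ANKRD37: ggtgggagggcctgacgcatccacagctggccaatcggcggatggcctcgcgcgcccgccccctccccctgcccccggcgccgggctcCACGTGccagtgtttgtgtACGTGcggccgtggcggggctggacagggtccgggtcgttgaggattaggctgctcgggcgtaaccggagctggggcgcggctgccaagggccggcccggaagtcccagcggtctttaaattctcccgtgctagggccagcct
HK2: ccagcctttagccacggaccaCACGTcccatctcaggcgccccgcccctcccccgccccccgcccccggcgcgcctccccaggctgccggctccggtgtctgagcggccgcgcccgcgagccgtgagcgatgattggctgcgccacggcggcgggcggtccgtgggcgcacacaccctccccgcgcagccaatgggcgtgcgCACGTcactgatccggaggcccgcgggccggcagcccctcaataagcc
P4HA1: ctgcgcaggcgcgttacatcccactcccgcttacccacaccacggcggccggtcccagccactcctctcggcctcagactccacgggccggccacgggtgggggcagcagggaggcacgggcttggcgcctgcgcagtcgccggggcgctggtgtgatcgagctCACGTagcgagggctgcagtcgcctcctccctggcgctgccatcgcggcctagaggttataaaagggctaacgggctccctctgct
Of the 25 measured hypoxia targets with a window, 16 (64.0%) held the core in those 250 bases, and among all 27305 genes with a window 5935 (21.7%) did. The list consists of genes chosen as known targets of these factors, so this share is a description of the list and carries no test.

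Glycolysis followed the same direction. Of 18 enzymes and transporters, 15 (83.3%) were higher and 2 (11.1%) lower in treated 3D (median 0.58), against 9.06% and 14.5% of all genes. In control cultures 11 were higher and 1 lower (median 0.75). The count of 15 became 9 without the second treated 2D array or without the second treated 3D array. SLC2A3, a high-affinity glucose transporter, was at 9.49 and 9.42 against 5.33 and 4.63 (22.2-fold, adjusted p = 0.00518). ENO2 was 8.30-fold higher and GPI 2.80-fold higher (13.84 and 14.10 against 12.46 and 12.51). ALDOA was 1.87-fold, PGK1 1.41-fold and GAPDH 1.31-fold higher, and ENO1 did not pass (0.05). PGK1 lost its call without the second treated 2D or second treated 3D array, and GAPDH without those or the first treated 2D array. LDHB was lower (−0.41), as was PFKM (−0.66), whose call was lost in 6 of the 8 leave-one-out fits. No member's treated difference departed from its control difference past the threshold. Of 20 collagen processing enzymes, 7 (35.0%) were higher and 2 (10.0%) lower in treated 3D (median 0.01), against 5 and none in control cultures. The largest of these differences were those of LOX (lysyl oxidase, 10.49 and 9.96 against 6.49 and 6.20) at 14.7-fold, P4HA1 at 5.95-fold and P4HA2 at 5.63-fold higher.

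NRF2 targets, the antioxidant and detoxification genes that are constitutively high in A549 cells, were lower in treated 3D. Of 23 measured, 19 (82.6%) were lower and none higher (median −0.95), against 14.5% and 9.06% of all genes. In control cultures 9 were lower and none higher (median −0.39). NQO1, a quinone reductase, was at 12.41 and 12.64 against 14.11 and 14.20 (−1.63 ± 0.12, adjusted p = 0.00435). Its 4 control arrays and 2 treated 2D arrays spanned 14.11 to 14.79, so that treated 3D stood apart, and its contrasts differed (adjusted p = 0.0468). ALDH3A1, an aldehyde dehydrogenase, had the same shape, at 12.70 and 12.60 against 14.47 and 14.60, with an adjusted p of 0.0208 for the difference of contrasts. The cystine transporter SLC7A11 differed in both contrasts alike (−2.74 and −2.43), at 10.53 and 10.12 against 12.84 and 13.30. ABCC2, an efflux pump, was 6.95-fold lower and UGDH 3.14-fold lower. Of the 4 members not past the threshold, OSGIN1 was at 0.03.

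Many genes of mitochondrial and peroxisomal fat oxidation were lower in treated 3D. Of 25 members, 16 (64.0%) were lower and none higher in treated 3D (median −0.85), against 14.5% and 9.06% of all genes. In control cultures 1 was lower (median −0.25). For 4 members the treated difference lay below the control difference past the threshold. PDK4, the kinase that shuts pyruvate dehydrogenase, was at 10.10 and 9.35 against 13.49 and 13.68 (−3.86 ± 0.28, adjusted p = 0.0044). PPARGC1A (PGC-1α), a coactivator of mitochondrial genes, was at 4.68 and 4.17 against 7.44 and 7.28, and its contrasts differed by −2.47 (adjusted p = 0.0454). HSD17B4, a peroxisomal enzyme, was 2.34-fold lower with close replicates (9.69 and 9.71 against 10.90 and 10.96, adjusted p = 0.00074). CPT2, which completes the import of fatty acids into mitochondria, was 2.91-fold lower. Among 31 subunits of oxidative phosphorylation, 12 (38.7%) were lower and none higher (median −0.22), with NDUFV2 at 11.58 and 11.46 against 12.86 and 12.90. The 12 became 6 without either treated 2D array and 7 without either control 3D array.

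Part of the amino acid response and ribosome biogenesis lists was lower in 3D. Of 25 genes of the amino acid response, 12 were lower and 4 higher in treated 3D (median −0.81), and 10 lower and 1 higher in control cultures (median −1.14). The 12 became 7 without either treated 3D array. The serine synthesis enzymes were all lower. PSAT1 was at 10.86 and 10.72 against 13.93 and 14.24 (−3.30 ± 0.12, adjusted p = 0.00137), PSPH was lower by a log2 difference of −3.70 and PHGDH 4.36-fold lower. ATF4, DDIT3, TRIB3 and PPP1R15A, the regulators of the stress arm in the same list, were the 4 members called higher. ATF4 (0.39) lost its call in 6 of the 8 leave-one-out fits and TRIB3 without the first treated 2D array. DDIT3 (CHOP) was at 9.56 and 10.00 against 5.59 and 6.27 and differed by 3.85 in treated and 3.88 in control cultures. PPP1R15A (GADD34), which restarts translation, was 12.1-fold higher. Of 28 ribosome biogenesis factors, 18 (64.3%) were lower and 1 (3.57%) higher (median −0.75), against 9 and 1 in control cultures. RRS1 was 4.27-fold lower (9.11 and 8.68 against 10.94 and 11.04) and POLR1A, the large subunit of RNA polymerase I, 3.11-fold lower. LYAR, a nucleolar protein, was lowest in treated 3D (6.52 and 6.55, with 7.89 to 8.24 on the other 6 arrays, adjusted p = 0.0403 for the difference of contrasts).

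**Figure D4:**
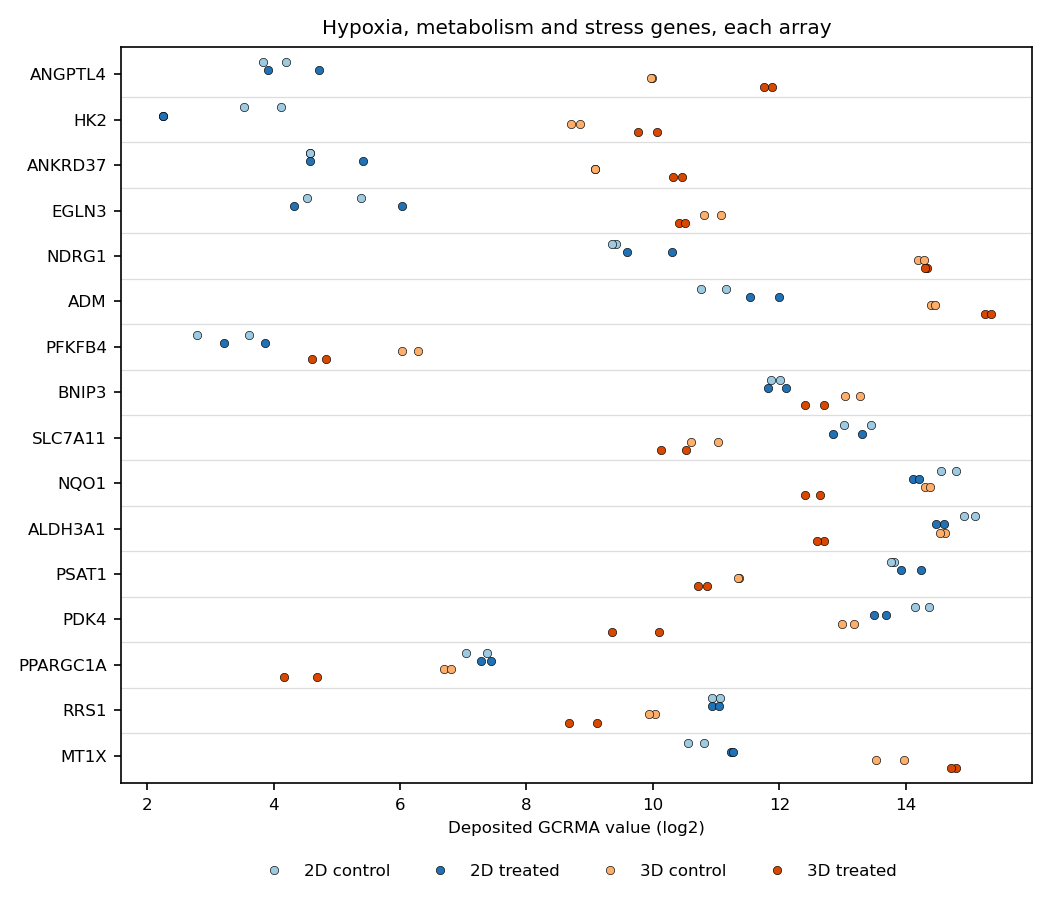
Deposited log2 values of 16 hypoxia, metabolism and stress genes on each of the 8 arrays, with 2 points per group. ANGPTL4, HK2, ANKRD37, EGLN3, NDRG1, ADM and MT1X are high on all 3D arrays, while NQO1, ALDH3A1, PDK4 and PPARGC1A are lowest on the treated 3D arrays.

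Some interferon-response genes were lower in treated 3D, and the duplicate treated 2D arrays disagreed with each other. Of 45 measured, 11 (24.4%) were lower and 3 (6.67%) higher, with a median of −0.97. These shares are over all measured members, 41 of which were above background in a treated group. Of all genes 14.5% were lower and 9.06% higher, and of genes above background 22.1% and 13.5%. IFIT1, an RNA-binding antiviral protein, was at 5.38 and 4.66 in treated 3D against 10.77 and 9.28 in treated 2D. Control arrays of both formats lay between 7.82 and 8.89, so that IFIT1 was on opposite sides of the control level in both treated formats. The contrasts of IFIT1 did not differ past the threshold (−5.40, adjusted p = 0.0812), and those of IFIT2 did (−2.65, adjusted p = 0.0217), with 6.18 and 5.93 against 8.83 and 8.44. IFIT5 was 5.19-fold lower. The first treated 2D array was above the second for IFI27 (9.41 and 6.66), IFITM1 (10.18 and 7.23), IFI6 (10.39 and 7.51) and ISG15 (10.91 and 9.04), none of which passed. The first control 2D array was likewise above the second for IFI27 (6.36 and 3.90) and IFITM1 (8.15 and 6.21), while duplicates of the 3D groups were within 1 unit for these 4 genes. What set the duplicates apart was not tested. Without the second treated 2D array 19 members were lower and none higher, and without the first 9 were lower and 2 higher. Counts of lower members were 7 without either control 2D array, 6 without either control 3D array, and 6 and 5 without the first and second treated 3D array. The IFIT1 difference of −5.01 was −4.26 without the first treated 2D array and −5.75 without the second, and its call was lost without the second treated 3D array (adjusted p = 0.0613). IRF1, GBP2 and ISG20, which NF-κB and interferon-γ also induce, were the 3 members higher in treated 3D (2.05-fold, 2.32-fold and 2.56-fold). IRF1 and ISG20 lost their calls in 6 and 5 of the 8 leave-one-out fits, and GBP2 did so without the second treated 2D array.

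**Figure D5:**
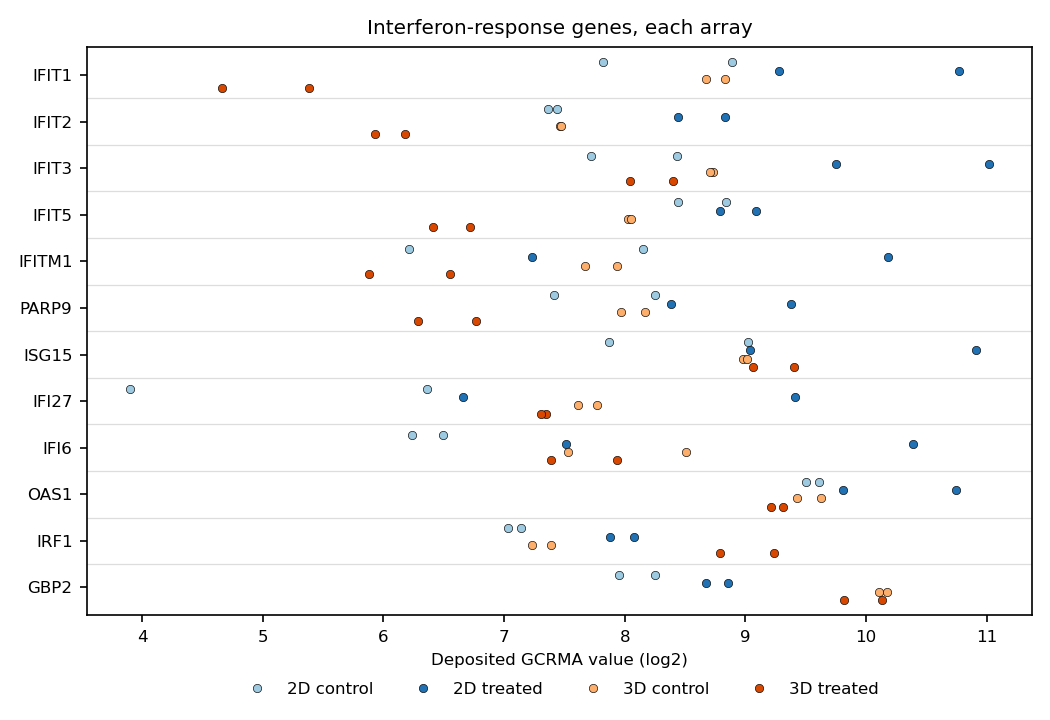
Deposited log2 values of 12 interferon-response genes on each of the 8 arrays, with 2 points per group. The treated 2D duplicates lie far apart for IFI27, IFITM1 and IFI6, and IFIT1, IFIT2 and IFIT5 are lowest on the treated 3D arrays.

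Many immediate early genes were higher in treated 3D. Of 31 immediate early genes, 13 (41.9%) were higher and 4 (12.9%) lower (median 0.58), against 5 and 3 in control cultures. The shares over all genes in treated 3D are 9.06% higher and 14.5% lower. The 4 lower members became 2 in 7 of the 8 leave-one-out fits, all but that without the second treated 3D array. JUN was at 12.70 and 12.74 against 9.29 and 8.92 (3.61 ± 0.14, adjusted p = 0.00149), and its treated difference exceeded that of control cultures (1.24) at an adjusted p of 0.0205. KLF6, a zinc finger factor, was at 11.94 and 12.21 against 8.90 and 8.98 with no difference in control cultures (0.0). ATF3 was 23.5-fold higher and ZFP36, which destabilizes cytokine mRNAs, 8.28-fold higher. MYC was lower (8.59 and 9.13 against 10.21 and 10.63), with its call lost in 7 of the 8 leave-one-out fits. Of 13 metallothioneins and metal-handling genes, 7 (53.8%) were higher and 2 (15.4%) lower (median 1.23), against 6 and 1 in control cultures (median 0.19). In the same direction, 7 members were called in both contrasts. MT1X was at 14.80 and 14.72 against 11.23 and 11.26, and MT1F at 12.99 and 12.96 against 9.38 and 9.36. Metallothioneins are near-identical copies, and their probe sets may share signal. Iron exporter SLC40A1 was 3.97-fold lower. Of 31 apoptosis regulators, 11 (35.5%) were higher and 5 (16.1%) lower, against 5 and 2 in control cultures. The share of lower members was near the 14.5% of all genes. Fewer members were lower when either treated 2D array was left out. The death receptor FAS was at 10.79 and 10.69 against 9.0 and 9.08 (adjusted p = 0.00117), the survival factor MCL1 was 3.39-fold higher, and CASP8 was 2.52-fold lower.

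Cell cycle lists had medians of −0.03 (mitosis), 0.0 (DNA replication) and 0.0 (cyclins and CDK inhibitors). Among 35 mitosis genes 3 (8.57%) were higher and 1 (2.86%) lower, and among 34 DNA replication genes 3 (8.82%) and 5 (14.7%). The 21 cyclins and CDK inhibitors held 4 (19.0%) higher and 2 (9.52%) lower members. Shares over all genes are 9.06% higher and 14.5% lower. Signals of the mitosis list were low, with array means of 4.04 to 4.73 and 27 members above background in a treated group. The single lower mitosis call became 10 without the first treated 2D array. Of 27 collagens, 5 were higher and 2 lower, with COL22A1 16.5-fold higher (9.70 and 9.12 against 5.86 and 4.87) and COL15A1 at 6.38 and 5.50 against 2.23, whereas COL12A1 (−1.38) and COL4A5 (−1.47) were lower and lost their calls in 7 and 6 of the 8 leave-one-out fits. The 5 higher collagens became 2 without the second treated 2D array or either control 3D array, and 8 without the second treated 3D array. COL1A1 did not pass (0.23).

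For the lists that follow, the shares over all genes are 9.06% higher and 14.5% lower. Of 32 Wnt and Notch genes, 10 were lower and 5 higher in treated 3D, against 9 and none in control cultures. The lower members included ZNRF3 (−3.22) and RNF43 (−3.18), which remove Wnt receptors from the surface, and AXIN2 (−1.92), a standard Wnt target, whereas the Notch targets HEY1 (4.19), HES4 (2.81) and HES1 (1.43) were higher. The 10 lower members became 5 without the second treated 2D array, and the 5 higher became 3 when any 1 of the 2D or control 3D arrays was left out. AXIN2 lost its call in 5 of the 8 leave-one-out fits (adjusted p up to 0.1). Of 25 xenobiotic and aldehyde enzymes, 12 were lower and none higher, against 4 and 1 in control cultures. The count of 12 became 8 without the first and 6 without the second treated 2D array. Of 19 genes of the citrate cycle and pyruvate dehydrogenase, 9 were lower and 1 was higher, and the 9 became 6 without the first treated 2D array, 3 without the second and 5 without the second treated 3D array. Of 31 transporters and channels, 11 were lower and 1 was higher, against 8 and none in control cultures. In the same direction, 8 were called in both contrasts. Of 22 antigen presentation genes, 7 were higher and 1 was lower, but the 7 became 3 without the second treated 2D array, 1 without either control 3D array, 2 without the first and 3 without the second treated 3D array. In control cultures 5 of the antigen presentation genes were higher and none lower. HLA genes are close copies, and their probe sets may share signal. Of 23 genes listed as p53 targets, 8 were higher and 3 lower, against 6 and 2 in control cultures. The largest difference was that of GADD45B (4.11), which the paper counts among immediate early genes, followed by DDB2 (2.49) and CDKN1A (2.13). The lower calls rested on single arrays, among them either treated 2D array, either control 3D array and the second treated 3D array. Of 16 S100 proteins, 5 were higher and none lower, led by S100A2 (2.36), and in control cultures 2 were higher and none lower. Of 18 housekeeping genes, 2 (11.1%) were higher and 3 (16.7%) lower, near the shares over all genes, with a median of −0.18. None passed in either direction without the second treated 2D array, and without the first none was higher and 2 were lower.

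The genes with the largest falls included matrix, transport and mucin genes. ECM2, a matrix protein, was at 7.33 and 8.40 in treated 2D and at 2.47 on both treated 3D arrays, at least 41.6-fold lower. Control 2D stood at 3.93 and 4.05, so ECM2 was highest in treated monolayers. LINC00473, a non-coding RNA, was at 4.58 and 3.06 against 9.23 and 9.22, and its difference of −5.40 was −6.16 without the first treated 3D array and −4.64 without the second. HINT3 was at 7.01 and 7.49 against 11.36 and 11.76 and differed by −3.72 in control cultures too. SLC51B, a bile acid and steroid exporter subunit, was at 3.93 and 3.62 in treated 3D and at 8.10 to 9.21 on all other arrays. MYLK (myosin light chain kinase) was 17.3-fold lower and GLDC, of glycine cleavage, lower by a log2 difference of −3.81. The airway mucins MUC5AC (6.69 and 6.79 against 10.12 and 9.87) and MUC5B (5.80 and 5.82 against 9.79 and 8.80) were 9.57-fold and 11.1-fold lower, and both were also lower in control 3D (−3.0 and −2.88). The mucin MUC13 was 3.41-fold lower, with a larger difference in treated than in control cultures (adjusted p = 0.00443). As these are bulk RNA samples, fewer cells with a transcript and less transcript per cell cannot be told apart for any of these genes.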

How the data were processed

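Each of the 4 groups was represented by 2 Affymetrix U133 plus 2.0 arrays of A549 RNA, grouped by sample title. The authors made the deposited log2 values with GCRMA, which subtracts background, normalizes between arrays and summarizes probe sets. The submitters' processing notes name limma 3.6.9, and the GCRMA version is not given in the sources used here.

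After removal of 62 control probe sets from 54675, 54613 entered the fit. A single gene is named by 41091 of them, several by 1801 and none by 11721. The resulting 19775 genes are each represented by the probe set with the highest mean over the 8 arrays. Group means of all 8 arrays were fitted by lmFit and eBayes (limma 3.58.1, R 4.3.3), leaving 4 residual degrees of freedom, and p-values were adjusted by Benjamini-Hochberg across every probe set fitted, with calls at 0.05. Adjusted p-values in the text come from this fit unless an array is said to be left out. All groups share 1 estimate of the spread, and the number of arrays limits the precision. The fit was also run on simulated arrays with independent normal noise, and only the sign and mean error of added differences were checked. The rate of false calls was not judged, and arrays that deviate together were not simulated. Intervals are 95% intervals of the fitted difference. Tables were joined with pandas 2.3.3 in Python 3.11.15 and plots drawn with matplotlib 3.10.9. Promoter sequences are those of RefSeq on GRCh38.p14, searched over the 250 bases before each start.

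A fold against a group near background is a lower bound against the mean of that group's array medians. Genes named are the top 15 and bottom 15 differences among called genes, up to 4 called members of each of 53 gene lists, and the 8 highest and 8 lowest differences of contrasts. Other list members are named with their values. Of 1295 listed genes, 1194 had a probe set naming them alone, 2 of them through an older symbol. The comparison and the lists were chosen with earlier results of these data known, so list counts are descriptions. The results were recomputed with each array left out, with the 4 treated arrays only, with quantile-normalized or median-centred values, after a filter on dim probe sets, with a variance trend or unmoderated t statistics, with another probe set standing for a gene, with p-values adjusted over genes, with the replicate number as a block, and with calls restricted to folds of 2 or more.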

Additional observations from a re-analysis of the deposited data

Results flagged for a closer look

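For 16 genes the treated 3D minus treated 2D difference departed from the control 3D minus control 2D difference by limma's test of the difference of contrasts, namely the 8 highest and the 8 lowest values among the 645 genes that passed it. The difference of contrasts (log2) was 9.81 for LCE3D, 8.70 for MMP1, 8.09 for MMP9, 8.01 for INHBA, 7.86 for GAL, 7.32 for PPP1R14C, 7.21 for MAF and 6.79 for PDGFB. It was −4.40 for SLC51B, −3.73 for FGA, −3.58 for KCNE3, −3.28 for SMIM2-AS1, −3.27 for DEPTOR, −3.24 for TMC5, −3.22 for AKR1C4 and −2.95 for CRACDL.

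FGA, the fibrinogen alpha chain, went past the threshold in opposite directions. It was at 4.58 and 4.47 in treated 3D against 6.41 and 6.27 in treated 2D, and at 8.40 and 8.70 in control 3D against 6.78 and 6.49 in control 2D. SMIM2-AS1, an antisense RNA, was at 6.28 and 6.25 in control 3D and between 2.65 and 3.31 on the other arrays. DEPTOR, an inhibitor of mTOR, was at 4.68 and 4.82 in treated 3D and between 8.02 and 9.18 on the other arrays.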

How the results depend on the processing

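The 4667 genes called in the treated comparison (1792 higher, 2875 lower) became 338 (148 and 190) when only the 4 treated arrays were fitted, and 2444 (916 and 1528) with a fold of at least 2. Leaving out 1 array gave 2636 to 4910 calls, 985 to 2424 higher and 1651 to 2486 lower. Of the 214 named genes called in it, 21 were called with the 4 treated arrays alone and 163 to 192 with 1 array left out. The 2110 calls of the control comparison became 3969 with the filter on dim probe sets, 1304 with ordinary t statistics, 869 with a fold of at least 2 and 1022 to 1383 with 1 array left out. The 645 calls of the difference of contrasts became 1083 with adjustment over 1 probe set per gene, 1423 with array medians subtracted, 2114 with the filter, 318 with ordinary t statistics, 380 with a fold of at least 2 and 557 to 2262 with 1 array left out. Higher genes made up 38.4% of the treated calls, 33.9% with array medians subtracted and 41.9% with quantile normalization. CREB3L2 (−0.48) was 4.19 by its probe set with the largest difference. The causes were not tested.

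Deviations of same-numbered arrays correlated at 0.281 for 2D control with 2D treated and at −0.019 to 0.102 for the other pairs. Same-numbered 2D arrays thus deviated together in part, and the main fit takes no account of it. With the replicate number as a block, 3584 genes were called in the treated comparison, 902 in the control comparison and 226 in the difference of contrasts.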
